A study of Mus musculus with 23 samples.

Results

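Nme1 and Nme2 are paralogous genes that encode the A and B subunits of nucleoside diphosphate kinase. They were chosen by name as 2 of the 748 genes with values on a NanoString nCounter metabolic pathways panel, which counts colour-coded probes bound to RNA without amplification, and both passed the filter on low values that left 619 genes for testing. RNA came from the hippocampus of 23 mice aged 18 months in 5 groups, and about 100 ng was hybridised per mouse. The choice of the genes was made with earlier results of these data in view, above all a low Nme1 in ADP_Veh against WT_Veh mice, so that contrast, and every group contrast that has ADP_Veh or WT_Veh mice on either side, is described here without a test.

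ADP_UA mice (5 mice, 3 of them females) carried the 3xTgAD alleles, Tg(APPSwe,tauP301L)1Lfa and Psen1tm1Mpm, were heterozygous for the Polb allele Polbtm1Rsky, and were dosed with urolithin A over 5 months, by oral gavage, each day at 200 mg per kg. ADP_Veh mice (4 mice, 1 female) had the same alleles and received vehicle. AD_UA mice (5 mice, 2 females) and AD_Veh mice (5 mice, 3 females) carried the 3xTgAD alleles without the Polb allele and received urolithin A and vehicle. WT_Veh mice (4 mice, 2 females) were wild type on vehicle. All were labelled C57BL6/J. Urolithin A is a compound that gut bacteria make from plant ellagitannins, and Polb encodes the gap-filling polymerase of base excision repair. There was no wild-type group on urolithin A and no group with the Polb allele alone among the samples. In the 3xTgAD line the APP and tau transgenes are known to be driven by a Thy1 element active in neurons.

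Nucleoside diphosphate kinases move the terminal phosphate of a nucleoside triphosphate, mostly ATP, onto other nucleoside diphosphates and so keep up the supply of GTP, CTP, UTP and their deoxy forms. The A and B subunits assemble into mixed hexamers. NME1 was first known, in tumour cells, as the metastasis suppressor NM23, and NME2 also acts as a protein histidine kinase. In the fly Drosophila the homologue awd is known to work with dynamin, a GTPase of synaptic vesicle uptake. The coding sequences of the paralogs are very similar and the probes' sequences are not known here, so how fully they tell the transcripts apart is uncertain.

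In the RefSeq table of GRCm38.p6 Nme1 and Nme2 are direct neighbours on the same strand of chromosome 11, Nme1 upstream of Nme2, and no other gene of that table lies between them. Each has 2 annotated starts. The 300 bases around a start (250 before and 50 after) are shown for 1 start of each gene, chosen after the search as the one with most motif matches (the first listed for Nme1, where they tied), because the neighbours' starts hold different motifs. Capitals mark the matches, and the sequences run 5′ to 3′ on the minus strand, from chr11:93968223-93968522 for Nme1 and chr11:93955734-93956033 for Nme2.
Nme1: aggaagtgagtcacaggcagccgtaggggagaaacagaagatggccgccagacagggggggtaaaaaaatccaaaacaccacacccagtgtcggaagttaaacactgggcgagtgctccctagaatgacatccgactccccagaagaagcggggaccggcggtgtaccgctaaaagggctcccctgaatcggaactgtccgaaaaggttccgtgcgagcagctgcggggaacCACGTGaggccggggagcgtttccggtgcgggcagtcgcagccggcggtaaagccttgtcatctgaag
Nme2: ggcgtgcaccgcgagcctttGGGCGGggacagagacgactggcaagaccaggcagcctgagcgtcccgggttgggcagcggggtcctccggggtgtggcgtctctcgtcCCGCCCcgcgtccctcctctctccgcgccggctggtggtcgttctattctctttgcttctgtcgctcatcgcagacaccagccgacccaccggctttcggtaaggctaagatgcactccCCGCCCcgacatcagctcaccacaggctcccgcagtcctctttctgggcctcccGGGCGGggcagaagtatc
The search covered both strands for the E-box CACGTG, the GC box GGGCGG and the CCAAT box CCAAT, which do not overlap each other in these windows. The Nme1 window held 1 E-box, its first base at position -18 from the start, and the window of the second Nme1 start held another at -29. Neither held a GC box or a CCAAT box. The Nme2 window held 4 GC boxes and neither other motif, and the window of the second Nme2 start held none of the motifs. E-boxes occurred in 7.15% of the 32851 promoter windows of the table, GC boxes in 35.7% and CCAAT boxes in 37.4%. These matches describe the letters only.

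Nme1 varied between mice and groups, whereas Nme2 stayed within a narrow band. Values are log2 of the count normalised per mouse by the authors. Nme1 was at 9.96, 9.88, 9.67, 9.75 and 9.58 in the ADP_UA mice. It was at 9.19, 9.68, 9.41 and 9.73 in the ADP_Veh mice. In AD_UA mice it was at 9.72, 9.94, 9.82, 9.98 and 9.88. The ADP_Veh group thus held the second-lowest mouse of the series, while the AD_UA mice lay close together. The AD_Veh mice were at 10.12, 9.87, 9.78, 9.80 and 9.17, and the WT_Veh mice at 10.04, 9.98, 9.95 and 10.44. The highest mouse of the series was WT_Veh replicate 4 and the lowest was AD_Veh replicate 5. The range over all mice was 1.27, or 2.41-fold.

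Nme2 was at 9.94, 9.96, 10.13, 9.96 and 10.07 in ADP_UA mice. It was at 9.83, 9.95, 10.06 and 10 in ADP_Veh mice, and at 9.90, 9.93, 9.94, 9.93 and 10.10 in AD_UA mice. Its highest values were thus in ADP_UA replicate 3 and AD_UA replicate 5. The AD_Veh mice were at 9.92, 9.88, 9.81, 9.93 and 9.97, and the WT_Veh mice at 9.87, 9.82, 9.95 and 9.79. AD_Veh replicate 5, the lowest mouse for Nme1, was the highest of its group for Nme2, and WT_Veh replicate 4, the highest for Nme1, was the lowest of all for Nme2. The whole range of Nme2 was 0.34, or 1.27-fold.

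**Figure D1:**
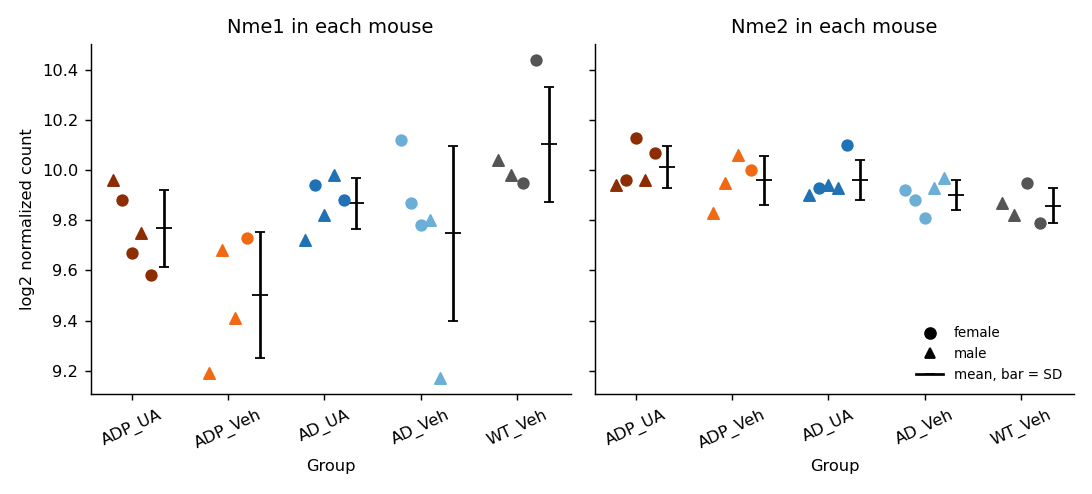
Nme1 (left) and Nme2 (right) in each of the 23 mice as log2 normalised count (vertical axis) by group (horizontal axis); circles are females, triangles males, and bars beside the points give mean and SD. Nme1 runs from 9.17 to 10.44 and is lowest on average in ADP_Veh mice, while Nme2 stays between 9.79 and 10.13.

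The spread of both genes was set against all genes and against counting error. Within groups the SD of Nme1 was 0.23, close to the median of 0.24 over the 619 tested genes. That of Nme2 was 0.08, and 16 of the 619 genes had a smaller one. Inferred from the steps of low values, Nme1 rested on 278 to 1312 counts per mouse and Nme2 on 391 to 1476. Counting error alone gives an SD of about 0.05 for each gene at these depths, against which the spread of Nme1 is several times as large and that of Nme2 less than 2 times. Total inferred counts were 186210 and 245943 in ADP_UA replicates 5 and 3 and 426600 to 692829 in the other 21 mice, and these 2 mice had the lowest Nme1 and the highest Nme2 of their group.

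In the values as deposited, WT_Veh mice stood at opposite ends of the order of the groups for the paralogs. For Nme1, WT_Veh mice were highest at 10.10 ± 0.23 (SD, n = 4), followed by AD_UA at 9.87 ± 0.10 (n = 5), ADP_UA at 9.77 ± 0.15 (n = 5) and AD_Veh at 9.75 ± 0.35 (n = 5), with ADP_Veh lowest at 9.50 ± 0.25 (n = 4). Each neighbouring pair in that order had overlapping ranges. For Nme2, ADP_UA mice were highest at 10.01 ± 0.08 (n = 5), ADP_Veh and AD_UA followed at 9.96 ± 0.10 (n = 4) and 9.96 ± 0.08 (n = 5), then AD_Veh at 9.90 ± 0.06 (n = 5), and WT_Veh was lowest at 9.86 ± 0.07 (n = 4). Here too every neighbouring pair overlapped. When each mouse was centred on its median, AD_UA mice were lowest for Nme2 at 9.91, below WT_Veh mice at 9.93. WT_Veh mice stayed lowest for Nme2 with reference gene centring and with quantile normalization.

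The genotype contrasts on vehicle are those with which Nme1 was chosen or that share its mice. Nme1 differed by -0.60 (SE 0.157) in ADP_Veh against WT_Veh mice, to 0.660 of the wild-type level, and all 4 ADP_Veh mice lay below all 4 WT_Veh mice. Of the 619 genes, 2.58% had all ADP_Veh mice below all WT_Veh mice, and 0% passed an adjusted p of 0.05 by limma in this contrast, where 81 genes had an unadjusted p under 0.05. That count depended on the fit, being 132 genes with array weights, which give less weight to variable mice, 6 without AD_Veh replicate 5 and 1 with the replicate block. Nme2 differed by 0.10 (SE 0.0627) in the same mice, with overlapping groups, where the median over all tested genes was 0.095. The Nme1 difference ran from -0.68 to -0.49 when each mouse was left out in turn, and was -0.56 with sex as a covariate, 3 of the 4 ADP_Veh mice being males.

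The other groups also had a lower mean of Nme1 and a slightly higher mean of Nme2 than the same 4 WT_Veh mice, so these comparisons are not separate evidence. In AD_Veh against WT_Veh mice Nme1 differed by -0.35 (SE 0.149) and Nme2 by 0.04 (SE 0.0595), with 4 of 5 AD_Veh mice below the lowest WT_Veh mouse for Nme1. Without AD_Veh replicate 5 the Nme1 difference was -0.21. In ADP_UA against WT_Veh mice Nme1 differed by -0.33 (SE 0.149) and Nme2 by 0.15 (SE 0.0595). In AD_UA against WT_Veh mice the differences were -0.23 (SE 0.149) and 0.10 (SE 0.0595), where the medians of all genes were 0.11 in the first of these contrasts and 0.12 in the second. Without WT_Veh replicate 4 the Nme1 difference was -0.22 in ADP_UA and -0.12 in AD_UA against WT_Veh mice. Centring each mouse on its median left Nme2 at 0.04 in ADP_UA and -0.02 in AD_UA against WT_Veh mice, and moved Nme1 further below.

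ADP_Veh and AD_Veh mice, which differ by the heterozygous Polb allele, stood -0.25 apart in Nme1 (SE 0.149) and 0.06 in Nme2 (SE 0.0595). They also differ in sex, with 1 of 4 ADP_Veh and 3 of 5 AD_Veh mice being females. All 4 ADP_Veh mice lay inside the AD_Veh range of Nme1. The Nme1 difference was -0.39 without AD_Veh replicate 5, -0.15 without AD_Veh replicate 1 and -0.14 without ADP_Veh replicate 1. ADP_UA (3 of 5 females) against ADP_Veh mice (1 of 4) gave 0.27 (SE 0.149) for Nme1 and 0.05 (SE 0.0595) for Nme2, and 3 of 5 ADP_UA mice were above the highest ADP_Veh mouse for Nme1. Without ADP_Veh replicate 1 the Nme1 difference was 0.16. The effect of urolithin A in ADP mice minus that in AD mice was 0.15 (SE 0.204) for Nme1 and -0.0060 (SE 0.0818) for Nme2. The Nme1 value was 0.04 without ADP_Veh replicate 1, 0.05 without AD_Veh replicate 1 and 0.29 without AD_Veh replicate 5, and the Nme2 value ran from -0.0493 to 0.0290 when each mouse was left out in turn.

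**Figure D2:**
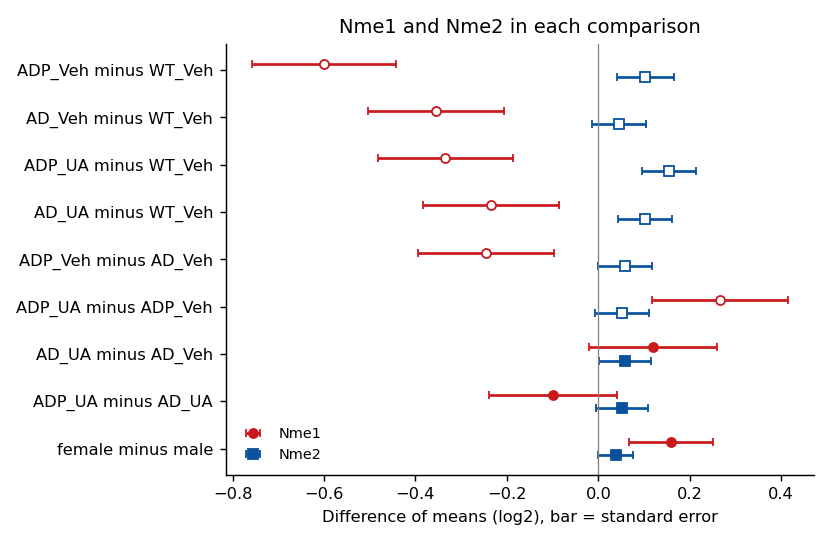
Difference of group means in log2 (horizontal axis) for Nme1 (circles) and Nme2 (squares) in 9 comparisons (vertical axis), the first-named group minus the other; bars are standard errors, filled symbols were tested and open symbols are descriptions. Nme1 lies at -0.60 to -0.23 in the 4 comparisons with WT_Veh mice, and Nme2 at 0.04 to 0.15.

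The comparisons of AD_UA with AD_Veh and of ADP_UA with AD_UA had neither of the groups of the contrast by which Nme1 was chosen on either side, although their standard errors draw on the spread within all 5 groups. In the first of them neither paralog passed the test. Nme1 averaged 9.87 in AD_UA mice and 9.75 in AD_Veh mice, a difference of 0.12 (SE 0.140, 95% confidence interval -0.17 to 0.41, limma adjusted p = 0.932), and all AD_UA mice lay inside the AD_Veh range. The sign rested on 1 mouse, since without AD_Veh replicate 5 the difference was -0.0245. Nme2 averaged 9.96 in AD_UA mice and 9.90 in AD_Veh mice, a difference of 0.06 (SE 0.0561, interval -0.06 to 0.17, limma adjusted p = 0.932), below the median of 0.07 over all genes. The sign of the Nme2 difference turned with median centring (-0.0360). Of the 619 genes, 0% passed in this comparison by limma and 21 had an unadjusted p under 0.05.

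ADP_UA (3 of 5 females) against AD_UA mice (2 of 5), which differ by the same allele under urolithin A, likewise gave no call for either paralog. Nme1 averaged 9.77 in ADP_UA mice and 9.87 in AD_UA mice, a difference of -0.10 (SE 0.140, interval -0.39 to 0.19, limma adjusted p = 0.819), with 2 of 5 ADP_UA mice below the lowest AD_UA mouse. Nme2 averaged 10.01 in ADP_UA mice and 9.96 in AD_UA mice, a difference of 0.05 (SE 0.0561, interval -0.06 to 0.17, limma adjusted p = 0.804). Without ADP_UA replicates 3 and 5, the mice of low total counts, the difference was -0.0047 for Nme1 and -0.0067 for Nme2, and without replicate 5 alone that of Nme1 was -0.0530. In this comparison 0% of the 619 genes passed by limma and 52 had an unadjusted p under 0.05.

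Females and males were compared over all 23 mice in a model that also held the 5 groups, so this test includes the ADP_Veh and WT_Veh mice but not the difference between them. Nme1 in the 11 females had a lowest value of 9.58, a median of 9.88 and a highest of 10.44, against 9.17, 9.78 and 10.04 in the 12 males. Both mice below 9.20 were males. The difference of females minus males was 0.16 (SE 0.0914, interval -0.03 to 0.35, limma adjusted p = 0.689), and 0% of the 619 genes were called by limma, 48 of them having an unadjusted p below 0.05. Without AD_Veh replicate 5, a male, the Nme1 difference was 0.0847, and 28 genes were then called. Nme2 had 9.79, 9.95 and 10.13 in females against 9.82, 9.94 and 10.06 in males, a difference of 0.04 (SE 0.0384, limma adjusted p = 0.787).

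Whether the paralogs moved together was asked within each mouse and from mouse to mouse. The difference Nme1 minus Nme2 in a mouse does not depend on how that mouse was scaled. Its zero has no meaning, since the probes differ, but it can be compared between groups. It averaged -0.24 ± 0.23 (SD, n = 5) in ADP_UA mice, -0.46 ± 0.22 (n = 4) in ADP_Veh mice, -0.09 ± 0.12 (n = 5) in AD_UA mice, -0.15 ± 0.38 (n = 5) in AD_Veh mice and 0.24 ± 0.28 (n = 4) in WT_Veh mice. The 4 ADP_Veh mice, at -0.64, -0.27, -0.65 and -0.27, lay below all 5 AD_UA mice, at -0.18, 0.01, -0.12, 0.05 and -0.22, and below all 4 WT_Veh mice, at 0.17, 0.16, 0.00 and 0.65. How often other pairs of genes separate these groups was not computed, and Nme1 was chosen with its ADP_Veh and WT_Veh values in view. The separation is therefore a description only. The ADP_UA mice, at 0.02, -0.08, -0.46, -0.21 and -0.49, and the AD_Veh mice, at 0.20, -0.01, -0.03, -0.13 and -0.80, overlapped with each other and with the remaining groups.

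In the comparisons with neither ADP_Veh nor WT_Veh mice on either side, the paralog difference did not separate the groups. It stood 0.06 apart in AD_UA minus AD_Veh mice (exact permutation test, two-sided, p = 0.849, adjusted over both comparisons 0.849) and -0.15 apart in ADP_UA minus AD_UA mice (exact permutation p = 0.254, adjusted 0.508). The smallest p that 252 splits allow is 0.00794. Without ADP_UA replicates 3 and 5 the second value was 0.0020, and without AD_Veh replicate 5 the first was -0.0995.

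**Figure D3:**
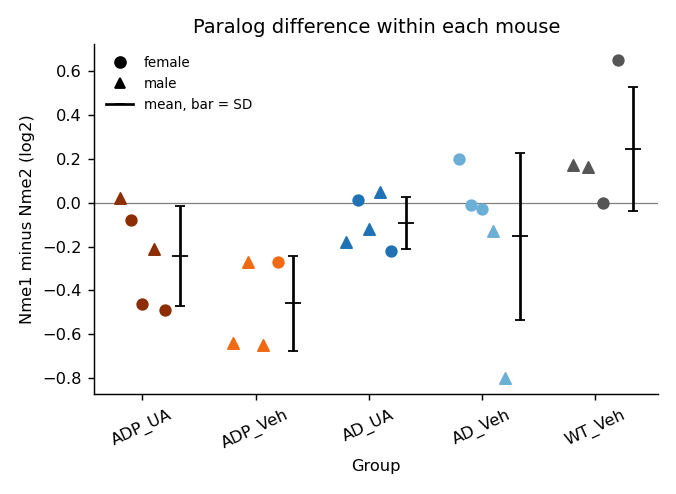
Nme1 minus Nme2 in log2 within each of the 23 mice (vertical axis) by group (horizontal axis); circles are females, triangles males, and bars beside the points give mean and SD. All 4 ADP_Veh mice lie between -0.65 and -0.27 and all 4 WT_Veh mice between 0.00 and 0.65, in the contrast by which Nme1 was chosen.

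From mouse to mouse no shared movement of the paralogs passed the test in the values as deposited. After removal of the group means, Nme1 and Nme2 correlated at Pearson r = -0.20 over 23 mice (two-sided permutation within groups, p = 0.378, adjusted over 7 relations 0.518) and Spearman rho = -0.22 (permutation p = 0.371, adjusted 0.519). Without AD_Veh replicates 1 and 5, the 2 mice whose Nme1 deviated most from their group mean, r was -0.14 (permutation p = 0.607). In 14 mice the paralogs lay on opposite sides of their group means and in 9 on the same side. The r rested in part on 1 mouse, since without ADP_Veh replicate 1 it was -0.44 (permutation p = 0.0425, not adjusted over the 7 relations) and without AD_Veh replicate 5 it was -0.07.

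The sign of that correlation changed with the scaling of the mice and with the replicate number as a block, under which it was 0.24 (permutation p = 0.381). It was 0.47 when each mouse was centred on its median (permutation p = 0.0535), 0.39 when centred on Gusb, Hprt, Rplp0 and Ywhaz (permutation p = 0.110) and 0.22 after quantile normalization (permutation p = 0.426). Centring subtracts the same number from both paralogs of a mouse. Within-group SDs were then 0.29 for Nme1 and 0.08 for Nme2 with median centring. With the values as deposited, r between Nme1 and the other 618 genes had a median of -0.22, so that Nme2 lay near the middle of them, with 301 genes above it. Median centring moved this median to -0.0140 and left 134 genes with a higher r to Nme1 than Nme2 had. Seen from Nme2, 518 of the 618 genes had a higher r to it than Nme1 had in the values as deposited. After median centring 35 genes did, where the median r with Nme2 was 0.09.

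**Figure D4:**
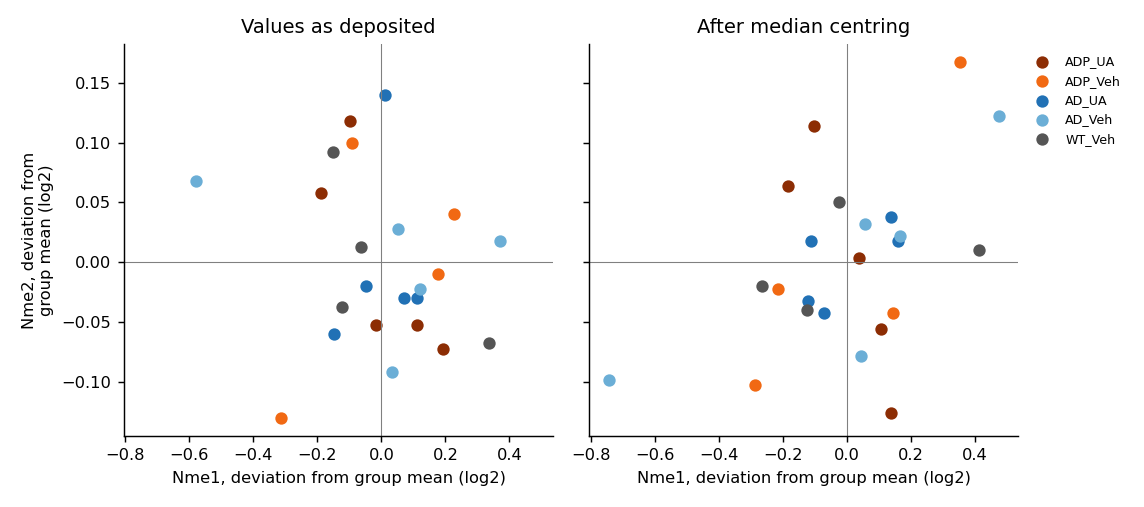
Deviation of Nme2 (vertical axis) against that of Nme1 (horizontal axis) from their group means in log2, for 23 mice coloured by group, with values as deposited (left) and after median centring (right); the axes have different scales. The r is -0.20 on the left and 0.47 on the right.

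The genes whose values over the 23 mice were most like those of Nme1 were Gda (r = 0.82), which encodes guanine deaminase of purine breakdown, Ldha (0.75), the lactate dehydrogenase A of glycolysis, Mycn (0.73), a transcription factor of the MYC family, Ap2s1 (0.72), a subunit of the clathrin adaptor, and Nr2f1 (0.72), a nuclear receptor. As a description with no test, their r ran from 0.66 to 0.77 for Ldha, Mycn, Ap2s1 and Nr2f1 and was 0.80 for Gda after removal of the group means. With median centring as well, the 5 lay between 0.76 and 0.85. Without AD_Veh replicate 5 the r of log2 values was 0.77 for Gda and 0.61 to 0.68 for the other 4. All values of a mouse share its library and scaling.

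Gda, the most like Nme1, averaged 10.39 ± 0.73 in ADP_UA mice (SD, n = 5), 10.37 ± 0.33 in ADP_Veh mice (n = 4), 10.62 ± 0.29 in AD_UA mice (n = 5), 10.56 ± 0.70 in AD_Veh mice (n = 5) and 11.22 ± 0.44 in WT_Veh mice (n = 4). WT_Veh mice had the highest mean, and ADP_Veh mice the lowest by a small margin to ADP_UA mice. Gda was picked by its r with Nme1 over these same mice, so a group order like that of Nme1 is not separate evidence. Ldha averaged 11.14 ± 0.33 in ADP_UA, 11.13 ± 0.17 in ADP_Veh, 11.33 ± 0.10 in AD_UA, 11.19 ± 0.28 in AD_Veh and 11.54 ± 0.12 in WT_Veh mice. Mycn, whose family binds E-boxes, averaged 6.76 ± 0.25 in ADP_UA, 6.58 ± 0.17 in ADP_Veh, 6.88 ± 0.27 in AD_UA, 6.73 ± 0.26 in AD_Veh and 6.91 ± 0.22 in WT_Veh mice, and the ranges of every pair of groups overlapped. Myc, of the same family, ran the other way, with r = -0.59 to Nme1, -0.52 after removal of the group means and -0.31 with median centring as well. It averaged 6.55 ± 0.43 in ADP_UA, 6.45 ± 0.15 in ADP_Veh, 6.31 ± 0.24 in AD_UA, 6.18 ± 0.30 in AD_Veh and 5.98 ± 0.29 in WT_Veh mice. Mycl, also of that family, gave 0.09, 0.38 and 0.48 in the same order. Myc and Mycl are given for their family only, outside the rule for named genes.

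The genes most like Nme2 were of another kind and their likeness went with the scaling. They were Siglecf (r = 0.81), a sialic acid receptor of myeloid cells, Cxcr6 (0.80), a chemokine receptor of T cells, Tk1 (0.79), the thymidine kinase of dividing cells, Cd180 (0.79), a receptor of immune cells, and Nfkb1 (0.79), a subunit of NF-kB. After removal of the group means they lay between 0.69 and 0.77, and with median centring as well between -0.05 and 0.33. Siglecf, Cxcr6 and Tk1 were measured near the low end of the panel, with group means of 2.75 to 4.47. The median r with Nme2 over all 618 genes was 0.18 after removal of the group means.

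**Figure D5:**
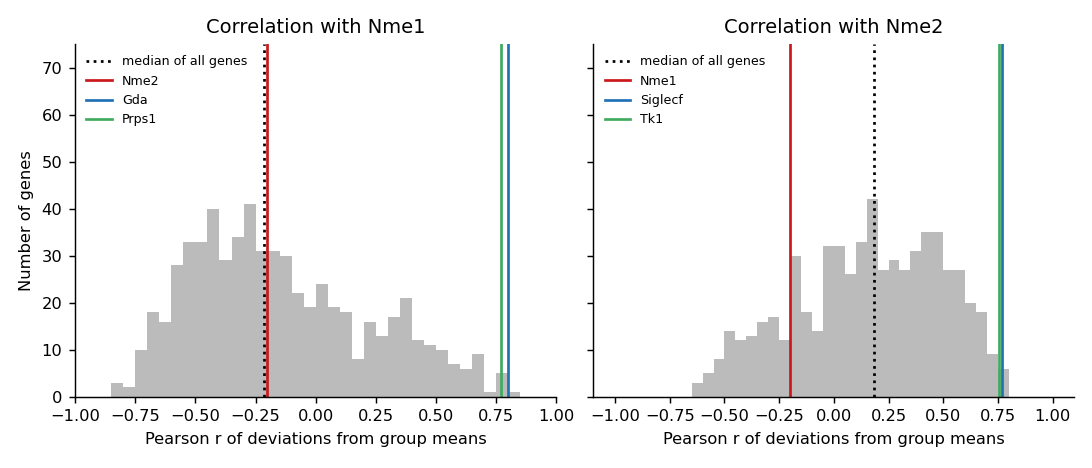
Number of genes (vertical axis) by Pearson r of deviations from group means over 23 mice (horizontal axis) with Nme1 (left) and Nme2 (right), with lines for the median of all genes, the paralog and 2 named genes. The paralogs correlate at -0.20, near the median of -0.22 for Nme1 and below the median of 0.18 for Nme2.

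Other genes of nucleotide metabolism were described from 4 lists, with 37 members measured and 35 tested. Nme3 to Nme8, the other listed members of the kinase family, were not among the genes with values. No member of any list passed in AD_UA against AD_Veh or in ADP_UA against AD_UA mice, where 0% of all genes passed. Over all 619 genes 448 lay above 0 and 168 below in AD_UA against AD_Veh mice, and 320 above and 298 below in ADP_UA against AD_UA mice. Of 11 nucleoside and nucleoside monophosphate kinases, 8 lay above 0 and 3 below in AD_UA against AD_Veh mice (median 0.09, all genes 0.07). In ADP_UA against AD_UA mice 4 lay above and 7 below (median -0.05, all genes 0.01). Ak1, the cytosolic adenylate kinase, differed by 0.13 (SE 0.0799) in the first comparison and the uridine-cytidine kinase gene Uck2 by 0.19 (SE 0.135), each with a limma adjusted p of 0.932. Uck2 in the second comparison was at 7.24 ± 0.36 in ADP_UA mice and 7.55 ± 0.08 in AD_UA mice (SD, n = 5 each), a difference of -0.31 (limma adjusted p = 0.507), and its relative Uckl1 differed by -0.25 (limma adjusted p = 0.576). Dguok, the mitochondrial deoxyguanosine kinase, was at -0.20 in the first comparison, and Tk2, the mitochondrial thymidine kinase, at 0.12 in the second.

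Purine synthesis genes had 4 of 6 members above 0 in both comparisons (medians 0.02 and 0.05). Impdh1 and Impdh2, the isoforms of IMP dehydrogenase at the branch to GTP, differed in opposite directions in ADP_UA against AD_UA mice. Impdh1 was at 7.92 ± 0.32 in ADP_UA and 8.32 ± 0.36 in AD_UA mice, a difference of -0.40 (SE 0.164), and Impdh2 at 8.57 ± 0.04 in ADP_UA and 8.35 ± 0.22 in AD_UA mice, a difference of 0.22 (SE 0.0966), each with a limma adjusted p of 0.507. Ppat, of the committed step of purine synthesis, differed by 0.14 (SE 0.0895) in AD_UA against AD_Veh mice (limma adjusted p = 0.932), where Impdh2 was at -0.11 and Prps1 at 0.06. Gart was at 0.10 in ADP_UA against AD_UA mice.

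Of 6 pyrimidine and deoxynucleotide genes, 3 lay above and 3 below 0 in AD_UA against AD_Veh mice (median 0.01), with the CTP synthase gene Ctps first by p at -0.10 (SE 0.0818, limma adjusted p = 0.932), Umps at 0.08 and Rrm2 at 0.18. In ADP_UA against AD_UA mice 4 lay above (median 0.04), with Rrm2, a subunit of ribonucleotide reductase, first at 0.36 (SE 0.333, limma adjusted p = 0.790), Umps at -0.09 and Tyms at 0.29. Of 12 tested salvage and breakdown genes, 9 lay above 0 in AD_UA against AD_Veh mice (median 0.07) and 10 in ADP_UA against AD_UA mice (median 0.06). Pnp, the purine nucleoside phosphorylase, was at 4.48 ± 0.24 in AD_UA and 4.02 ± 0.31 in AD_Veh mice (SD, n = 5 each), a difference of 0.45 (SE 0.222, limma adjusted p = 0.932), and Hprt was at 0.12 and Upp1 at 0.48. Ada, the adenosine deaminase, was first in ADP_UA against AD_UA mice at 0.37 (SE 0.316, limma adjusted p = 0.770), with Tymp at 0.35 and Upp1 at 0.25.

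Likeness to the paralogs differed widely within these lists. The r of deviations from group means with Nme1 ran from -0.69 to 0.80 over the 35 genes, with 15 above 0 and a median of -0.14, against -0.22 over all genes. The highest were Gda and, at 0.77, Prps1, which encodes the phosphoribosyl pyrophosphate synthetase that starts nucleotide synthesis. Prps1 averaged 9.11 ± 0.14 in ADP_UA, 9.08 ± 0.06 in ADP_Veh, 9.20 ± 0.04 in AD_UA, 9.14 ± 0.28 in AD_Veh and 9.14 ± 0.21 in WT_Veh mice, with overlapping spreads. With Nme2 the r ran from -0.58 for Ppat to 0.75 for Tk1, with 21 of 35 above 0 and a median of 0.19, against 0.18 over all genes.

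In bulk tissue, fewer cells of a type and less RNA per cell cannot be told apart. Markers of other cell types also varied between mice and groups, and none was at 0. The choroid plexus list had 3 of 7 members measured (Ttr, Folr1, Slc16a8). Its summed normalised count ran from 92.0 to 12950 in ADP_UA, 92.7 to 5066 in ADP_Veh, 55.3 to 9284 in AD_UA, 91.3 to 2703 in AD_Veh and 56.7 to 6788 in WT_Veh mice. Ttr fell into separate clusters, and the high one held 4 of 5 ADP_UA, 3 of 4 ADP_Veh, 3 of 5 AD_UA, 1 of 5 AD_Veh and 1 of 4 WT_Veh mice. The correlations with Ttr kept the group means, and mice were shuffled over all groups of a cluster. Differences between groups, also the one by which Nme1 was chosen, thus enter them. Within the 12 mice of high Ttr, Nme1 correlated with Ttr at r = 0.33 (permutation p = 0.293) and rho = 0.30 (p = 0.342), and within the 11 of low Ttr at -0.25 (p = 0.444) and -0.42 (p = 0.197). Nme2 gave 0.38 (permutation p = 0.223) and 0.34 (p = 0.279) in the high mice and -0.08 (p = 0.807) and 0.01 (p = 0.988) in the low ones, and no value passed over the 7 relations (smallest adjusted p 0.384 for r and 0.264 for rho). Without the 2 mice farthest from the median Ttr of each cluster, r was 0.60 (permutation p = 0.0638) for Nme1 and 0.42 (p = 0.226) for Nme2 in the high mice, and -0.38 (p = 0.298) and 0.39 (p = 0.288) in the low ones. With Ttr removed with the group means, Nme1 and Nme2 correlated at -0.13 (permutation p = 0.589).

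Of the other markers, few were measured. The oligodendrocyte gene Aspa, 1 of 9 listed, averaged 9.22 ± 0.72 in ADP_UA, 9.28 ± 0.58 in ADP_Veh, 8.99 ± 0.40 in AD_UA, 8.96 ± 0.96 in AD_Veh and 8.09 ± 0.63 in WT_Veh mice. The neuronal gene Gad1, 1 of 11 listed, averaged 10.95 to 11.16 over the groups. The astrocyte gene Glul, 1 of 8, averaged 13.60 ± 0.08 in ADP_UA, 13.88 ± 0.16 in ADP_Veh, 13.66 ± 0.11 in AD_UA, 13.71 ± 0.17 in AD_Veh and 13.54 ± 0.11 in WT_Veh mice. Its mean was thus highest in ADP_Veh mice, where that of Nme1 was lowest, and lowest in WT_Veh mice, where that of Nme1 was highest. The microglial genes Itgam and Cd68, 2 of 11 listed, summed to 399 to 844 in ADP_UA, 225 to 999 in ADP_Veh, 328 to 840 in AD_UA, 287 to 1165 in AD_Veh and 321 to 440 in WT_Veh mice. Of the vessel list 3 of 7 were measured, summing to at most 487 in ADP_UA, 696 in ADP_Veh, 482 in AD_UA, 678 in AD_Veh and 372 in WT_Veh mice. Of the blood and T cell list 4 of 6 were measured, summing to at most 176 in ADP_UA, 173 in ADP_Veh, 324 in AD_UA and 830 in AD_Veh mice, and the highest sum in WT_Veh mice was below these. As a description with no test, r with Nme1 after removal of the group means was -0.56 for Gad1, -0.63 for Glul and -0.64 for Aspa. It was -0.19 for Itgam, -0.27 for Cd68, -0.35 for Ptprc, and -0.69, -0.54 and -0.70 for the vessel genes Flt1, Slc2a1 and Pdgfrb. The median over all genes was -0.22. With median centring as well, Aspa, Flt1 and Pdgfrb lay at -0.68, -0.62 and -0.72, and Gad1, Glul and Slc2a1 at -0.32, -0.21 and -0.34. The part of these markers in the Nme1 differences was not tested. Both paralogs were also set against log2 of the inferred total count after removal of the group means. Nme2 gave r = -0.47 (permutation p = 0.0549, adjusted 0.384) and rho = -0.49 (p = 0.0377, adjusted 0.264). Its r was -0.45 (permutation p = 0.138) without ADP_UA replicates 4 and 5, the 2 mice whose totals deviated most from their group mean. ADP_UA replicate 3, the other mouse of low total, stayed in. Nme1 gave r = 0.16 (permutation p = 0.346, adjusted 0.518) and rho = 0.07 (p = 0.764, adjusted 0.891), and r = 0.08 (permutation p = 0.647) without ADP_UA replicates 4 and 5.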

How the data were processed

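Values were deposited as log2 normalized counts, which the authors made with nCounter Advanced Analysis per the series' design text. Background correction, normalization genes and version are not given in the sources used here. Of 768 rows, 20 held no value. Within a mouse, at least 99.6% of low values (up to 40 counts, tolerance 0.0125) fell on the steps of whole counts, from which counts were inferred and used for depth and counting error only. Genes with a normalized value of 20 in at least 4 mice were tested with limma 3.58.1 in R 4.3.3 (1 mean per group over 23 mice, eBayes with trend, two-sided, Benjamini-Hochberg over 619 genes, threshold 0.05). Correlations used 100000 permutations within groups, or over all mice of a cluster for those with Ttr, where group means were kept. The members, lists, comparisons and the rule for named genes (both paralogs, the 3 members of each nucleotide list with the smallest p in both tested treatment and genotype comparisons, any member past the threshold, cell type markers, and the 5 genes most correlated with each paralog) were chosen with earlier results of these data known. Ttr fell into clusters, so it was correlated within them, which made 7 relations in place of 5 planned. Replicates were separate samples, and nothing in the labels says how they share litters or runs, so p-values measure the spread between these samples. Whether equal replicate numbers paired mice is not known (27 of 43 same-numbered pairs correlated over 0.1, median 0.17, range -0.39 to 0.55). The main fits did not treat them as pairs. The workflow was tested on simulated data. Other steps ran in Python 3.11.15 with SciPy 1.17.1, and plots used matplotlib 3.10.9. Promoter sequences are RefSeq's, from GRCm38.p6, where 747 of 748 symbols matched. Alternatives were other scalings, filters, covariates, moderation and leaving out mice.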

Additional observations from a re-analysis of the deposited data

Results flagged for a closer look

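AD_UA replicate 5 stood apart from the other 4 mice of its group in Nme2, at 10.10 log2 normalized counts, where the others lay between 9.90 and 9.94. It was the 1 such value among 15 sets of group values examined for Nme1, Nme2 and their difference, and chance alone gives about 1 in 20. The sets are not independent, since the difference is made from both genes.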

How the results depend on the processing

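Of 264 alternatives to tested results, 250 kept their direction and side of the threshold, 13 turned direction and 1 had an unadjusted permutation p below 0.05. The Nme1 and Nme2 correlation of -0.20 turned to 0.4741 with median centring, 0.3949 with reference gene centring and 0.2177 with quantile normalization, and to 0.2380 with the replicate block; leaving out 1 mouse gave -0.4406 to -0.0711, the lowest without ADP_Veh replicate 1 (permutation p = 0.0425, not adjusted over the 7 relations). In AD_UA minus AD_Veh mice Nme2 was at -0.0360, -0.0495 and -0.0012 with the same 3 scalings, Nme1 at -0.0366 with array weights and -0.0245 to 0.213 leaving out 1 mouse, and their difference at -0.0995 to 0.1505. Without both ADP_UA mice of low totals, ADP_UA minus AD_UA mice gave -0.0067 for Nme2 and 0.0020 for Nme1 minus Nme2. Nme2 in females minus males was -0.0258 with reference gene centring. Of 490 alternatives to described differences, 482 moved by less than the SD within groups. All 8 others were of Nme2: with reference gene centring 0.0231 in ADP_Veh and 0.0234 in ADP_UA minus WT_Veh and -0.0283 in ADP_Veh minus AD_Veh mice; with median centring 0.0360 in ADP_UA and -0.0180 in AD_UA minus WT_Veh mice; in AD_UA minus WT_Veh mice also 0.0019 with reference gene centring and 0.0075 with quantile normalization; and 0.1106 with the latter for the difference of treatment effects. The cause was not tested. With the replicate block no other result on Nme1 or Nme2 turned direction or passed. Genes called in ADP_Veh minus WT_Veh mice numbered 0, but 132 with array weights, 6 without AD_Veh replicate 5 and 1 with the replicate block; with array weights also 182 in place of 0 in ADP_UA and 92 in place of 0 in AD_UA minus WT_Veh mice, 10 in place of 1 in AD_Veh minus WT_Veh mice and 2 in place of 0 in ADP_Veh minus AD_Veh mice. In ADP_UA minus WT_Veh mice 13 were called without WT_Veh replicate 3, 10 without ADP_UA replicate 2 and 2 without AD_Veh replicate 5; in AD_Veh minus WT_Veh mice 2 without ADP_Veh replicate 1. Genes called in females minus males numbered 0, 32 with array weights and 28 without AD_Veh replicate 5; in AD_UA minus AD_Veh mice 0 and 1 with array weights; and in ADP_UA minus AD_UA mice 0 and 1 without AD_UA replicate 2. Centring on the panel's own reference genes could not be fitted, since none had values; Gusb, Hprt, Rplp0 and Ywhaz were used instead, chosen after seeing the data, as was removal of Ttr. Counting error of about 0.05 log2 limits what can be said of Nme2.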
